A study of Mus musculus with 3 samples.

Results

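This is an account of 8 mouse genes of the complement and kinin systems, *C3*, *C4b*, *C1s1*, *Cfb*, *C2*, *Serping1*, *Kng1* and *Kng2*, in the stromal cells of bone marrow, out of 55422 genes counted by droplet single cell RNA sequencing (scRNA-seq). The 8 genes were matched by symbol, and they were chosen by their measured UMI levels, since in earlier results of these data *Kng1* and *Kng2* led a group of stromal cells rich in *Lepr* and *Cxcl12*. Their high level in those cells is therefore given as a description, with no test. The data come from long bones of untreated C57BL/6 mice aged 3 weeks (C57BL/6J for the metaphyseal libraries, per the study's methods). There were 2 libraries of metaphyseal cells from wild-type males, depleted of lineage-positive cells and then of CD45+ and CD117+ cells (metaphyseal replicates 1 and 2). There was 1 library of GFP+ cells sorted by flow cytometry from femur and tibia of male *Pdgfra-GFP* mice. These are heterozygous knock-in reporters in which *Pdgfra* drives a nuclear H2B-GFP protein. For this library the study's results name the metaphysis-epiphysis region and its methods the metaphysis region. The sort, the reporter allele and possibly the dissected region differ between the metaphyseal and *Pdgfra-GFP* libraries and cannot be told apart. The labels name Chromium V2/V3 for all libraries and the methods V3, so a difference in chemistry between libraries was not tested, and the sources used here do not give the number of animals per library.

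Complement is a cascade of plasma proteins that marks and lyses targets. It starts when the C1 complex, in which C1q binds the target and the proteases C1r and C1s cut, cleaves C4 and C2 to form an enzyme that splits C3. Factor B (*Cfb*) joins cleaved C3 in the alternative loop, which amplifies the reaction. *Serping1* encodes C1 inhibitor, a serpin that blocks C1r and C1s and also the contact-phase proteases plasma kallikrein and factor XII. *Kng1* and *Kng2* encode kininogens, the precursors from which kallikreins release bradykinin. The liver is the main source of these plasma proteins. Stromal cells rich in *Lepr* and *Cxcl12* line marrow sinusoids and hold the niche for blood stem cells.

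On the mouse genome build GRCm38, *Kng1* lies on chromosome 16 from 23057865 to 23082078 on the plus strand and *Kng2* from 22985854 to 23029482 on the minus strand, so that their starts face each other 28383 bases apart. *Cfb* (34856374 to 34862518) and *C2* (34862604 to 34898265) follow each other on the minus strand of chromosome 17 with 85 bases between them. *C4b* lies on the same strand from 34728380 to 34743882, 112.5 kb from *Cfb*, and *C3* lies farther along the chromosome from 57203970 to 57228136. *C1s1* occupies 124530345 to 124542359 on the minus strand of chromosome 6, 6.901 kb from *C1ra*, the gene of its partner protease. *Serping1* is on chromosome 2 from 84765387 to 84775444. Several members have a near copy: of the 50-base words in the last 500 bases of the transcript, which 3′ libraries read, 32.59% of those of *Kng1* also occur in *Kng2*, 38.14% of those of *C4b* in *C4a*, and 17.96% of those of *C1s1* in *C1s2*. Counts of these genes are uncertain to the extent that reads from shared stretches were lost or split.

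RefSeq promoter windows on GRCm38.p6, from 250 bases before to 50 after an annotated start, were found for 3 of the 8 members. They are shown because these 3 genes include both kinds of pattern described below, stromal (*Kng2*, *C1s1*) and myeloid with stromal (*C3*). Capitals mark the C/EBP motif TTGCNNAA or its reverse complement TTNNGCAA. The *Kng2* window is chr16:23029052-23029351 on the minus strand, inside the gene as annotated above. The *C1s1* window is chr6:124542310-124542609 and the *C3* window chr17:57228087-57228386, both on the minus strand.
Kng2: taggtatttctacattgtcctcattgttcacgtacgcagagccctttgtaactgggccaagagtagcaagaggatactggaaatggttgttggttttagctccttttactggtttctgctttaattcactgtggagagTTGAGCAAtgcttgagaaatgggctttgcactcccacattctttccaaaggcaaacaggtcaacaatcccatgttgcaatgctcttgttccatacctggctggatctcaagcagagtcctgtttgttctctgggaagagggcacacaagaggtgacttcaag
C1s1: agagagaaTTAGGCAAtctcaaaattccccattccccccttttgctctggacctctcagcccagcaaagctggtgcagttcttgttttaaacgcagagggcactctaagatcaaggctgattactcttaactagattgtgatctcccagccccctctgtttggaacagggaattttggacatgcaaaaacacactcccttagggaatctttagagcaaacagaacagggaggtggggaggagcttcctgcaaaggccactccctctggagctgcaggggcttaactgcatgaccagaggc
C3: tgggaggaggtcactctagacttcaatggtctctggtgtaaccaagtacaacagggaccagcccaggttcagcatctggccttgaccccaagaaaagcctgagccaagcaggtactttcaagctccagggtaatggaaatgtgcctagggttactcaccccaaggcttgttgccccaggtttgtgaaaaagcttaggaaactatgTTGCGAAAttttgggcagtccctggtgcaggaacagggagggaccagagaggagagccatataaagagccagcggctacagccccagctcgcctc
The C/EBP letters occurred once in each of these windows, and in 10.8% of all 32851 RefSeq promoter windows of that length. A second *C1s1* entry, chr6:124542272-124542571, did not hold them. None of these windows held the letters searched for EBF (CCCNNGGG, in 13.7% of windows), for the interferon-stimulated response element (GAAA, any 2 bases, GAAA; 3.44%) or for forkhead factors (GTAAACA, 3.65%), both strands read. A match is only a match of letters.

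The libraries held 25243314, 22082735 and 91747759 unique molecular identifiers (UMIs, tags that count each captured RNA molecule once) for metaphyseal replicates 1 and 2 and *Pdgfra-GFP*, and 2389, 2011 and 11319 cells passed the filters. The same cell barcode occurred in a metaphyseal and the *Pdgfra-GFP* library 9 times and 10 times, and the metaphyseal libraries shared 0. Cells were assigned to populations by fixed marker lists, a gate, and the raw UMIs of each population with at least 10 cells in a library were added up. A level is given as CPM, the UMIs of the gene per 1000000 UMIs of that sum, and levels of different genes are not ranked. The Lepr Cxcl12 stromal gate held 649, 616 and 3594 cells, of which 180 of 4859 (3.70%) lay near its edge. All 8 of its markers, among them *Lepr*, *Cxcl12*, *Adipoq*, *Kitl* and *Il7*, were highest in this population, which the gate on these same genes largely fixes. Other stromal gates held metaphyseal mesenchymal stromal cells (mpMSCs; 72, 55 and 1424 cells), septoclasts (SCs, cells that resorb cartilage; 11, 8 and 195), osteoblasts (OBs; 188, 168 and 1716), mural cells of vessel walls (19, 18 and 63) and fibroblasts (476, all in *Pdgfra-GFP*). The metaphyseal libraries, although labelled stromal, also held 379 and 308 sinusoidal and 402 and 305 metaphyseal endothelial cells (ECs). SC, macrophage and erythroid values come from 2 libraries, because metaphyseal replicate 2 had only 8 SCs, 6 macrophages and 8 erythroid cells.

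All 8 genes were read in Lepr Cxcl12 stromal cells of every library, and for 7 of them these cells held most of the UMIs. Of the *Serping1* UMIs in cells, 85.7%, 88.5% and 73.3% in metaphyseal replicates 1 and 2 and *Pdgfra-GFP* lay in this population. The shares were 80.0%, 82.6% and 75.2% for *Kng1*, 85.1%, 85.3% and 77.8% for *Kng2*, and 86.4%, 86.8% and 69.6% for *C4b*. They were 83.5%, 89.7% and 70.1% for *C1s1*, 87.0%, 87.8% and 75.1% for *C2*, and 81.6%, 71.9% and 66.5% for *Cfb*. *C3* stood apart, with 38.0%, 29.7% and 41.5% of its UMIs in these cells and 30.2%, 46.3% and 13.2% in the far fewer neutrophil precursors. These shares also depend on how many cells of each kind a library holds.

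*Kng1* reached 549.7, 559 and 434 CPM in Lepr Cxcl12 stromal cells of metaphyseal replicates 1 and 2 and *Pdgfra-GFP* (514 ± 69.9, SD, n = 3 libraries). The next level was that of mpMSCs, at 96.9, 54.9 and 49.3 CPM, and the ranges did not overlap. The ratio of Lepr Cxcl12 stromal cells to mpMSCs was 5.67, 10.2 and 8.79 in the 3 libraries. In OBs *Kng1* was at 2.74, 3.47 and 4.89 CPM. In every other population it stayed at or below 40.4 CPM, the value of B lineage cells in *Pdgfra-GFP*, and these lower values overlapped.

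*Kng2* showed the same order, with 666, 638 and 421 CPM in Lepr Cxcl12 stromal cells (575 ± 134.5, SD, n = 3) and 43.2, 48.1 and 25.4 CPM in mpMSCs. The ratios were 15.4, 13.3 and 16.5. Both kininogen genes were lower in the *Pdgfra-GFP* library than in either metaphyseal library within this population. *Kng2* stayed at or below 28.0 CPM elsewhere, the highest value being that of erythroid cells in *Pdgfra-GFP*.

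*Serping1*, the inhibitor of the C1 proteases, was at 1938, 1979.7 and 3141 CPM in Lepr Cxcl12 stromal cells (2353 ± 683, SD, n = 3). Mural cells followed with 325, 189.8 and 501 CPM, mpMSCs with 181, 203 and 466 CPM, and fibroblasts of the *Pdgfra-GFP* library with 357 CPM. These 3 neighbours overlapped and none reached the level of the Lepr Cxcl12 population. The ratios to mpMSCs were 10.7, 9.77 and 6.74. Unlike the kininogens, *Serping1* was higher in *Pdgfra-GFP* than in both metaphyseal libraries, in Lepr Cxcl12 stromal cells and in mpMSCs alike. In OBs it was at 16.2, 15 and 43.7 CPM.

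*C1s1*, the C1s protease, was the most even of the 8 across libraries, with 136, 143 and 151 CPM in Lepr Cxcl12 stromal cells (143 ± 7.33, SD, n = 3). Mural cells had 211, 58.4 and 117 CPM, from 26, 8 and 40 UMIs, a range that includes that of the Lepr Cxcl12 population, so the order of the 2 populations was not resolved at this depth. Fibroblasts had 34.5 CPM and mpMSCs 9.17, 10.3 and 20.4 CPM. The remaining populations were at or below 15.1 CPM.

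*C4b*, which encodes the C4 protein cut by C1s, was at 366, 344 and 176 CPM in Lepr Cxcl12 stromal cells (295 ± 104, SD, n = 3). The *Pdgfra-GFP* value was the lowest of the 3, outside the range of the metaphyseal libraries. Chondrocytes (26.2, 19.7 and 17.6 CPM) and mpMSCs (14.4, 29.2 and 20.8 CPM) came next and overlapped. *C2*, which pairs with C4 in the C3-splitting enzyme, was at 126, 119.7 and 162 CPM (136 ± 22.5, SD, n = 3) and at 7.86, 3.43 and 14.2 CPM in mpMSCs. Fibroblasts had 36.5 CPM of *C2*, and mural cells of metaphyseal replicate 1 had 32.5 CPM against 7.30 and 5.83 CPM in the other two libraries.

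*Cfb*, next to *C2* on the chromosome, was read only 31, 23 and 157 times in Lepr Cxcl12 stromal cells, at 8.35, 6.36 and 11.6 CPM (8.79 ± 2.67, SD, n = 3). Exact 95% Poisson intervals, which like all intervals here cover counting error only, were 5.68 to 11.9, 4.03 to 9.54 and 9.89 to 13.6 CPM. In mpMSCs it was at 0 in both metaphyseal libraries and 1.34 CPM in *Pdgfra-GFP*, so that Lepr Cxcl12 stromal cells were at least 2.13-fold and at least 1.23-fold higher against a floor of 3 UMIs per library, and 8.70-fold higher in *Pdgfra-GFP*. Arterial ECs of *Pdgfra-GFP* had 17.3 CPM from 6 UMIs, with an interval of 6.35 to 37.7 CPM that covers the stromal value.

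*C3*, the hub of the cascade, was the member whose highest level lay outside the stroma. Neutrophil precursors had 277, 410.3 and 144 CPM, and macrophages 363 CPM in metaphyseal replicate 1 and 85.5 CPM in *Pdgfra-GFP*, ranges that overlapped. Lepr Cxcl12 stromal cells had 42.0, 34.3 and 31.2 CPM (35.8 ± 5.57, SD, n = 3), below all of these. Erythroid cells of metaphyseal replicate 1 also reached 47.5 CPM, from 5 UMIs in 10 cells. The macrophage gates of the 2 libraries held unlike cells. The 18 cells of metaphyseal replicate 1 had no *C1qa* UMI, and the 129 of *Pdgfra-GFP* had 3441 CPM. Among stromal populations *C3* was at 0, 1.72 and 11.5 CPM in mpMSCs and 13.9 CPM in fibroblasts. The ratio of Lepr Cxcl12 stromal cells to mpMSCs was at least 10.7 in metaphyseal replicate 1, 20 from 1 mpMSC UMI in replicate 2, and 2.72 in *Pdgfra-GFP*.

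**Figure D1:**
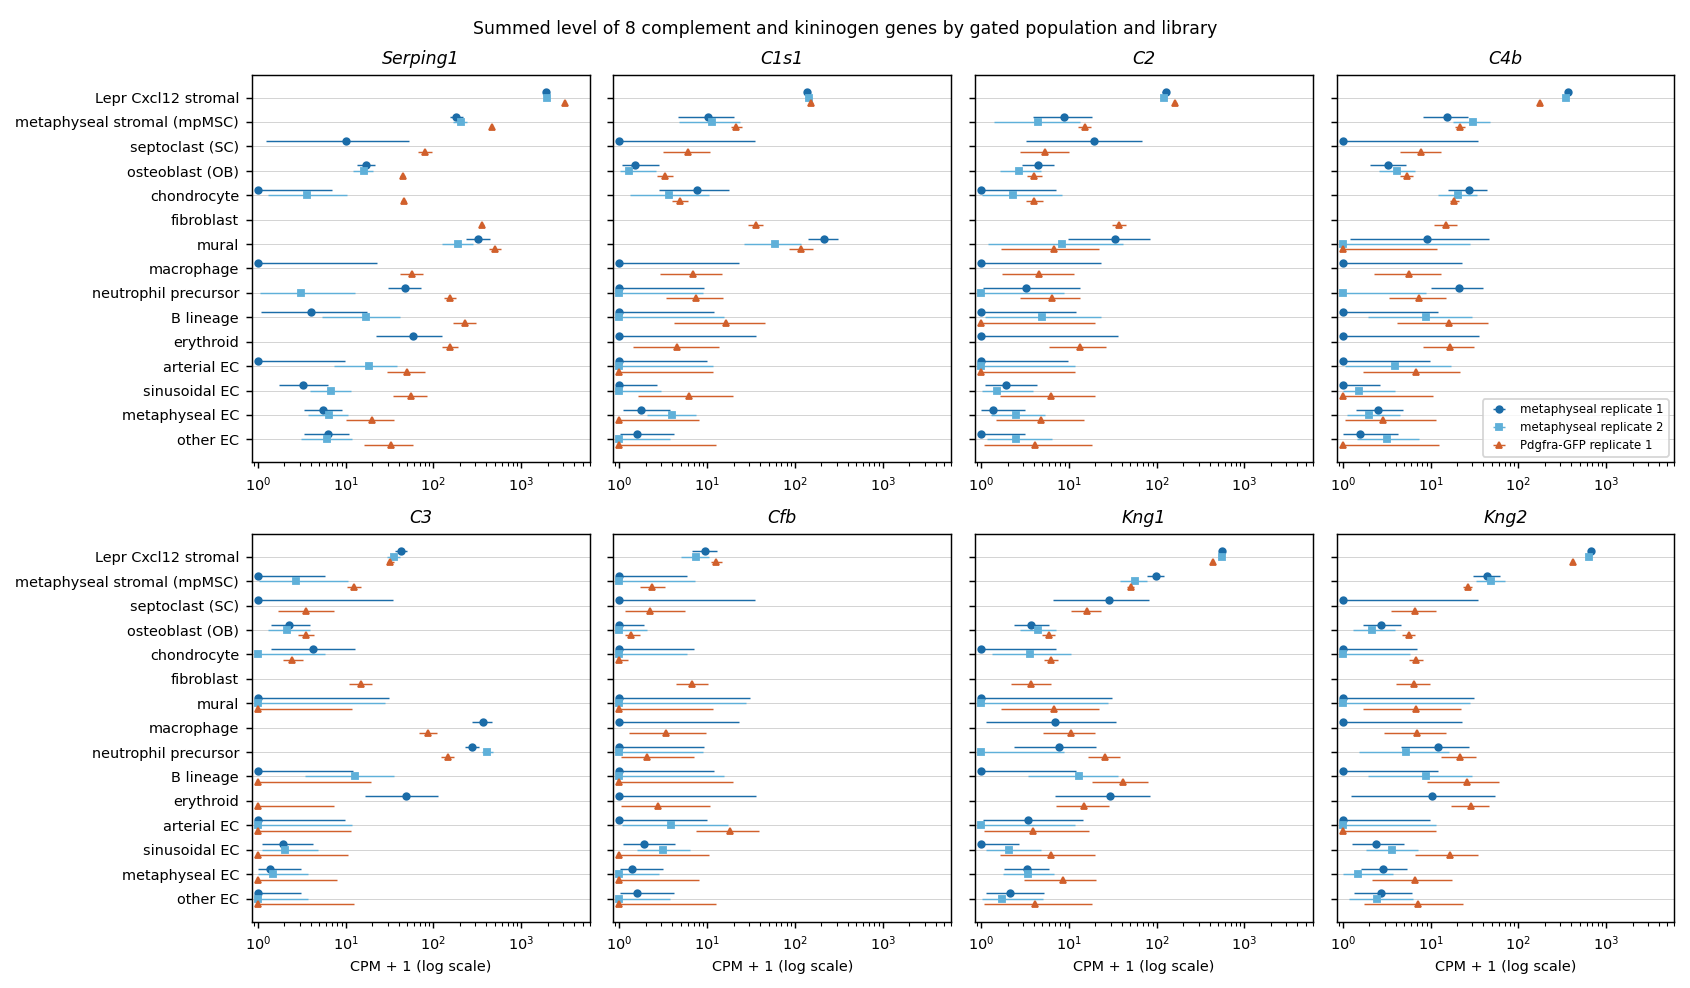
Level of each of the 8 genes (1 panel each, CPM + 1 on a log axis) in every gated population, with 1 point per library and bars for exact 95% Poisson intervals. Lepr Cxcl12 stromal cells lie to the right of every other population for *Kng1*, *Kng2*, *Serping1*, *C4b* and *C2*, mural cells overlap them for *C1s1*, and neutrophil precursors and macrophages lie above them for *C3*.

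Free RNA was present in all libraries. On near-empty barcodes, those with at most 100 UMIs, *Serping1* was at 353, 317 and 587 CPM, *Kng1* at 127, 122 and 103 CPM and *Kng2* at 157, 156 and 110 CPM. *C4b* was at 84.2, 80.4 and 33.4 CPM there, *C1s1* at 55.4, 45.7 and 39.4, *C2* at 30.2, 26.0 and 31.4, *C3* at 17.7, 20.6 and 11, and *Cfb* at 2.33, 1.37 and 3.01. Erythroid cells, which should lack these genes, had 154 CPM of *Serping1*, 14 of *Kng1* and 28.0 of *Kng2* in *Pdgfra-GFP*. The level in the Lepr Cxcl12 population was above the near-empty level in every library for each of the 8 genes. It was also above the erythroid level in the 2 libraries that had one, except for *C3*. There the erythroid value of metaphyseal replicate 1, from 5 UMIs in 10 cells, was higher. The levels of mpMSCs, OBs, SCs and ECs lay below the near-empty level of their library for *Serping1*, *Kng1*, *Kng2*, *C4b*, *C1s1* and *C2*. A near-empty level does not measure how much free RNA the counts of a cell hold. *Bglap*, a marker of the OB gate, was at 22.6, 34.6 and 572 CPM in Lepr Cxcl12 stromal cells and 3255, 5201 and 23891 CPM on near-empty barcodes. The gate leaves out cells with a high OB score, which partly fixes that low value. *Hba-a1*, a marker of no gate, was at 61.7, 377 and 205 CPM in Lepr Cxcl12 stromal cells. On near-empty barcodes *Hba-a1* was at 2617, 2708 and 3710 CPM. How much of the level of these 6 genes in mpMSCs, OBs, SCs and ECs was free RNA was not tested.

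How many cells of the Lepr Cxcl12 population carried each gene was compared with all cells brought down to 2000 randomly drawn UMIs (thinned cells), and 249 *Pdgfra-GFP* cells below that depth were dropped. *Serping1* was seen in 92.0%, 93.5% and 98.1% of cells in metaphyseal replicates 1 and 2 and *Pdgfra-GFP*. *Kng1* was seen in 62.1%, 65.1% and 54.7%, and *Kng2* in 70.4%, 66.6% and 54.1%. If the same UMIs had been spread evenly over the cells, 66.2%, 68.2% and 57.8% would have carried *Kng1*, and 73.1%, 70.9% and 56.8% *Kng2*. The observed shares were a little below these. The variance was 1.23, 1.22 and 1.16 times the mean for *Kng1* and 1.17, 1.19 and 1.14 times for *Kng2*. The mean was only 1.08, 1.15 and 0.862 UMIs of *Kng1* per thinned cell. Counts this low lie near an even spread even where cells differ, so equal levels between cells are not shown.

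*C4b* was seen in 43.8%, 43.2% and 28.8% of thinned cells against 50.1%, 50.8% and 31.4% for an even spread. *C1s1* was seen in 23%, 22.2% and 25.7%, *C2* in 20.3%, 17.4% and 24.1%, *C3* in 5.55%, 5.68% and 5.80%, and *Cfb* in 1.85%, 1.46% and 2.51%. The variance of *Serping1* was 2.11, 1.88 and 2.02 times the mean, and that of *C3* in metaphyseal replicate 1 was 1.63 times. For the same relative spread between cells this ratio grows with the mean count. Thinned cells held a mean of 3.96, 3.96 and 6.36 UMIs of *Serping1*, and 0.0709 of *C3* in metaphyseal replicate 1. The ratio therefore does not rank the genes by spread. Without thinning, 90.6%, 90.7% and 71.6% of cells held *Kng1* and 92.8%, 92.0% and 70.8% held *Kng2*. In 63 thinned erythroid cells of *Pdgfra-GFP*, whose median depth of 8079 UMIs was above that of the stromal cells, 12.7% held *Serping1*, 1.59% *Kng1*, 3.17% *Kng2* and none the other 5 members. For *Cfb* and *C3* that 0 of 63 has little weight, since their stromal shares are themselves small.

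Most cells held several members. At least 1 kininogen was seen in 87.8%, 87.3% and 77.2% of thinned cells and both in 44.7%, 44.3% and 31.7%, next to 43.7%, 43.3% and 29.6% for the product of the separate shares. The median cell held UMIs of 3 of the 8 members in each library, 11.6%, 10.7% and 8.94% held at least 5, and only 2, 7 and 12 cells held none.

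**Figure D2:**
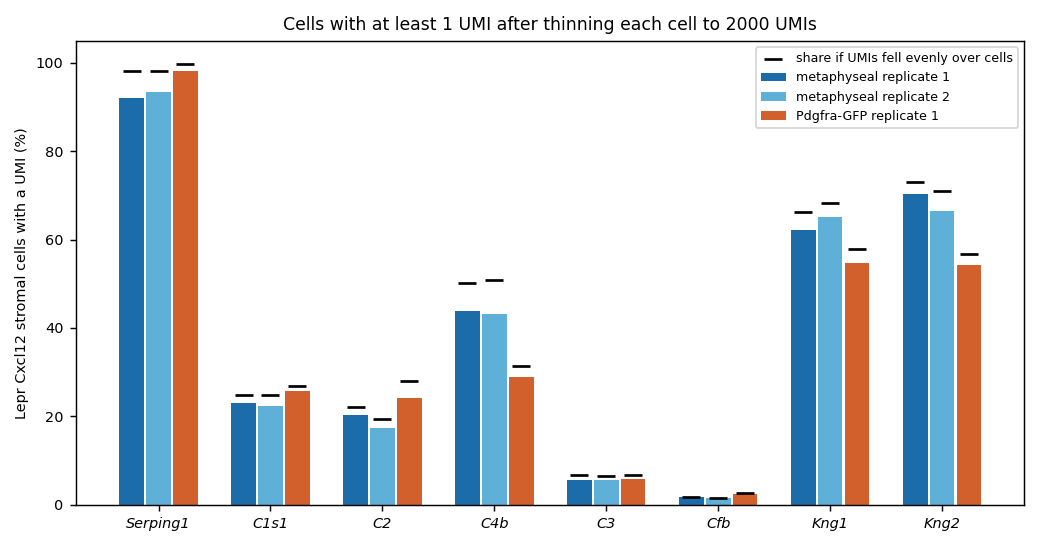
Percent of Lepr Cxcl12 stromal cells with at least 1 UMI of each gene after thinning to 2000 UMIs, by library, beside the percent an even spread of the same UMIs would give. Observed shares sit slightly below the even spread for nearly all genes, from 98.1% for *Serping1* in *Pdgfra-GFP* down to 1.46% for *Cfb* in metaphyseal replicate 2.

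SCs, OBs, ECs and splits within the Lepr Cxcl12 population gave comparisons that had not been used to choose the members, and these were tested with edgeR's quasi-likelihood test and Benjamini-Hochberg adjustment over all genes, with the library as a block. The p-values measure the spread between sums of these libraries only, since nothing states that they came from separate animals. For comparisons between populations, 1 model held the sums of all gated populations. Its spread was pooled over populations of the same 3 suspensions, taken as independent once the library was fitted. Small p-values there do not rest on the spread between 3 libraries alone. With SCs against mpMSCs, 3 of 8 members were lower in SCs and none higher, where 5.75% of 13083 genes passed in either direction and 2.73% were lower. *Serping1* was at 9.16 and 79.4 CPM in SCs of metaphyseal replicate 1 and *Pdgfra-GFP*, below the mpMSC value of each library (log2 fold change -3.12, SE 0.642, adjusted p = 0.00119). *Kng1* was at 27.5 and 15 CPM, from 3 and 24 UMIs (-2.09, SE 0.518, adjusted p = 0.00783), and *Kng2* at 0 and 5.63 CPM (-2.81, SE 0.766, adjusted p = 0.0189). None of the 3 calls held without the library block (adjusted p of 0.598, 0.162 and 0.126 by edgeR). The share of all genes that passed without the block is not given.

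SCs gave only 2 sums, so leaving out metaphyseal replicate 1 or *Pdgfra-GFP* left 1 SC sum, assumed to vary like the other populations. *Serping1* kept an adjusted p under 0.05 without each library in turn, but without *Pdgfra-GFP* its SC value rested on 1 UMI in 11 cells, which is no sign of stability. *Kng1* lost its call without *Pdgfra-GFP* (log2 fold change -1.67, adjusted p = 0.627 by edgeR) and *Kng2* without any one of the 3 libraries (adjusted p of 0.112, 0.0649 and 0.232). *Kng1* also lost its call in DESeq2 (adjusted p = 0.194), and *Kng2* under a stricter gate (0.393 by edgeR) and when sums needed at least 20 cells (0.059). *C1s1* (-2.01, adjusted p = 0.0967 by edgeR), *C4b* (-1.69, 0.135) and *C3* (-1.85, 0.559) did not pass. *C2* was fitted at -1.28 (adjusted p = 0.278 by edgeR), although 2 UMIs in the 11 SCs of metaphyseal replicate 1 put its mean at 11.4 CPM in SCs and 8.49 CPM in mpMSCs. *Cfb* was fitted at -0.04. For all 3 called genes both the SC and the mpMSC values lay below the near-empty level of their library. How much free RNA adds to these differences was not tested. In *Pdgfra-GFP* the SC values of *Serping1* and *Kng2* were also below those of erythroid cells, and that of *Kng1* was close to it.

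With OBs against mpMSCs, 6 of 8 members were lower in OBs and none higher, beside 36.9% of all genes called in either direction and 19.0% lower. *Kng1* showed a log2 fold change of -3.08 (SE 0.350, adjusted p = 4.39e-09 by edgeR), *Serping1* -2.78 (SE 0.451, 4.56e-06), *Kng2* -2.47 (SE 0.426, 1.50e-05) and *C1s1* -2.45 (SE 0.423, 1.52e-05). *C4b* (-1.65, SE 0.359, adjusted p = 0.000319 by edgeR) and *C2* (-1.08, SE 0.341, 0.0120) were lower too. All 6 were lower in OBs in 3 of 3 libraries. The fit rescales the sums (TMM) and CPM do not, so fitted changes differ from ratios of the levels. Log2 ratios of CPM were larger in size, at -3.48, -3.75 and -3.42 for *Serping1* and -2.68, -3.20 and -2.26 for *C4b*. That of *Kng2* in *Pdgfra-GFP* (-2.46) was not. For each of the 6, OBs and mpMSCs both lay below the near-empty level in every library. *C1s1* in mpMSCs was at 9.17, 10.3 and 20.4 CPM against 55.4, 45.7 and 39.4 CPM on near-empty barcodes. The part of free RNA in these differences was not tested either. The *C2* call was lost without metaphyseal replicate 2 (adjusted p = 0.0959 by edgeR) and without *Pdgfra-GFP* (0.663), and the *Serping1* call without the block (0.0774). *C3* (-1.32, adjusted p = 0.0758) and *Cfb* (-1.05, 0.298) did not pass in edgeR's test, although *C3* passed when genes with low counts were kept (-1.29, adjusted p = 0.0455).

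In ECs the members were near 0. They entered this test through their counts in other populations, and apart from *Serping1* no EC sum compared held more than 6 UMIs of a member, so that little could have passed. None of 8 passed between sinusoidal and metaphyseal ECs in edgeR or in DESeq2, where 16.3% of all genes passed and 3645 of 13083 had an unadjusted p under 0.05. None of the 8 had an unadjusted p that low, the nearest being *Cfb* (log2 fold change 2.43, adjusted p = 0.183 by edgeR). *Serping1* was at 2.28, 5.81 and 54.6 CPM in sinusoidal ECs and 4.59, 5.39 and 19.0 CPM in metaphyseal ECs, which overlap. Without *Pdgfra-GFP* 1 member passed, *C1s1* at -4.05 (adjusted p = 0.0486 by edgeR), and that sum rests on few UMIs.

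Within the Lepr Cxcl12 population, cells with UMIs of at least 2 of 14 interferon-response genes were set against cells with none, both after thinning, since complement genes are known to answer to interferons. The high side held 198, 185 and 1378 cells and the low side 269, 241 and 1011. Which UMIs thinning drew helped to part the sides, and full-count levels of the interferon genes are not given. A member that did not pass therefore shows little about how it varies with interferon response. None of the 8 members passed in edgeR or in DESeq2, beside 1.26% of 9780 genes by edgeR, of which 717 had an unadjusted p under 0.05. *C4b* was the 1 member with an unadjusted p that low. It was at 315, 322 and 169 CPM in interferon-high cells and 388, 377 and 192 CPM in interferon-low cells, lower in 3 of 3 libraries (log2 fold change -0.23, SE 0.0643, adjusted p = 0.0851 by edgeR). It passed when genes with low counts were kept (adjusted p = 0.0367 by edgeR). The other 7 members were fitted between -0.17 and -0.02, and *Serping1* was at 1938.6, 1957 and 3139 CPM against 1920.3, 2017 and 3202 CPM.

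Cells were also split by whether they held a kininogen UMI after thinning. *Kng1* and *Kng2* define this split and are no result of it. In full counts *Kng1* was at 588, 599 and 514 CPM in positive cells and at 281, 292 and 153 CPM in negative cells. The sides were also parted by which UMIs thinning drew. A member that did not pass therefore shows little about how it varies with kininogen. None of the other 6 members passed in edgeR or in DESeq2, beside 0.115% of 11332 genes by edgeR. Those are 13 genes, with *Kng1* and *Kng2* among them. Of the 11332 genes 457 had an unadjusted p under 0.05, as did 2 of the 6 members, *Serping1* and *C4b*. *Serping1* was at 1967, 2008 and 3193 CPM in kininogen-positive and 1734, 1793 and 3008 CPM in kininogen-negative cells, higher in 3 of 3 libraries by a small amount (log2 fold change 0.16, SE 0.0433, adjusted p = 0.677 by edgeR). It passed only when genes with low counts were kept (0.22, adjusted p = 0.00269 by edgeR). *C4b* was at 369, 352 and 181 against 346, 287 and 157 CPM, again higher in 3 of 3 libraries (0.21, SE 0.0874, adjusted p = 1 by edgeR). *C2* (0.12), *Cfb* (0.08), *C1s1* (0.01) and *C3* (-0.07) were fitted closer to 0.

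**Figure D3:**
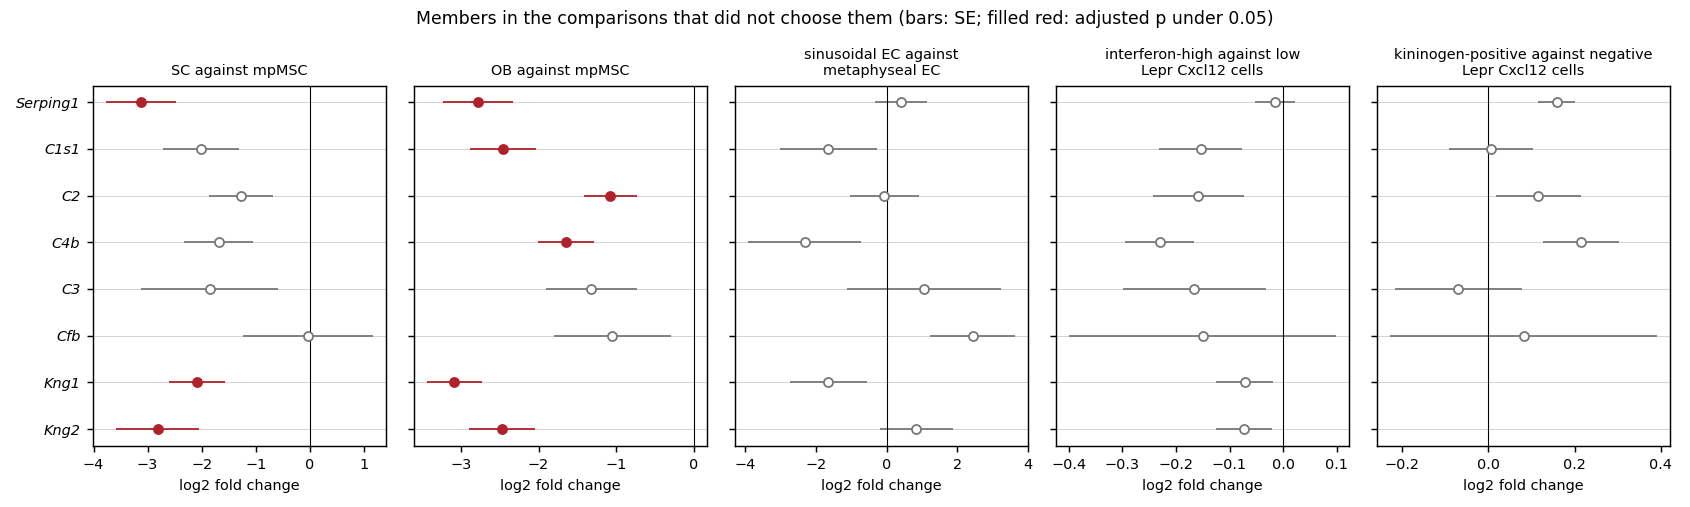
Log2 fold change of each member (points, bars are standard errors, filled red where the adjusted p was under 0.05) in the comparisons that did not choose the members. Red points appear only below 0 in SCs against mpMSCs (3 members) and OBs against mpMSCs (6 members), and the points of both splits within Lepr Cxcl12 stromal cells lie within 0.23 of 0.

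The rest of the pathway was read from lists of 79 complement and kinin genes, 71 of them no members, of which 39 had enough counts to be tested between populations. In Lepr Cxcl12 stromal cells against mpMSCs, 14 of the 39 were higher and 3 lower by edgeR, beside 14.5% and 13.8% of all 13083 genes (28.3% in either direction). Their median log2 fold change was 0.56, next to 0.06 for all genes. DESeq2 called 10 of the 39 in place of 17, and the share of all genes it called is not given.

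*C1ra*, the C1r protease that activates C1s, was at 351, 329.9 and 304 CPM in Lepr Cxcl12 stromal cells and 35.4, 36.1 and 44.7 CPM in mpMSCs (log2 fold change 3.10, SE 0.246, adjusted p = 1.63e-12 by edgeR). Of the classical and lectin start 3 of 9 tested genes were higher, *C1ra*, the mannose-binding lectin *Mbl1* and the collectin *Colec11* (1.79). *C6*, a part of the membrane attack complex, was higher (2.84), and so was *Clu*, which encodes clusterin, a fluid-phase inhibitor of that complex (2.36, mean 1053 against 227 CPM). *Cfd*, factor D, which cuts factor B, was fitted higher but was at 0 to 12.8 CPM and nearly all of it in *Pdgfra-GFP*.

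Of 11 tested kallikrein-kinin genes 4 were higher and 2 lower. The higher ones were the kallikrein-binding serpin gene *Serpina3c* (4.67), *Serpina3n*, and the peptidases *Mme* (1.64), which degrades bradykinin, and *Ece1* (1.03). The lower ones were *Cpe* (-4.92) and *Prcp* (-2.51). *A2m*, a broad protease inhibitor, was also lower (-1.16). Plasma kallikrein (*Klkb1*) and factor XII (*F12*), the contact-phase proteases named above, were hardly seen. *Klkb1* had a mean of 0.766 CPM in Lepr Cxcl12 stromal cells and *F12* was at 0. The bradykinin receptor *Bdkrb2* was also at 0 in these cells, and its highest mean was 5.18 CPM in metaphyseal ECs. *Ace*, which inactivates bradykinin, was at 10.1 CPM there and at 104.8 CPM in arterial ECs.

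**Figure D4:**
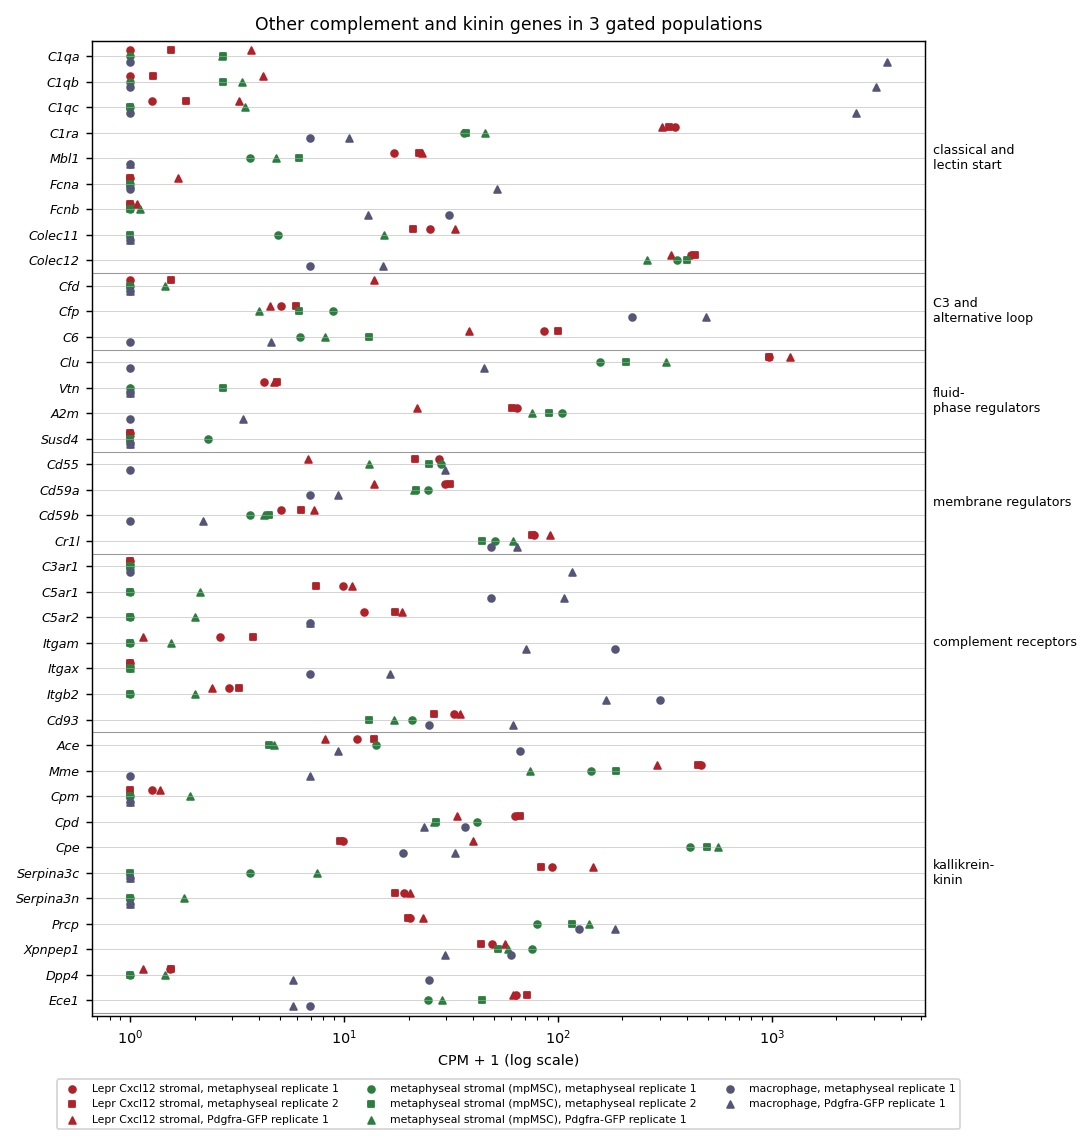
Levels of other complement and kinin genes (CPM + 1, log axis) in 3 gated populations, with 1 point per library. *C1ra* and *Clu* lie farthest right in Lepr Cxcl12 stromal cells. Among the sums shown, *C1qa*, *C1qb* and *C1qc* are high only in macrophages of *Pdgfra-GFP*. The 6 macrophages of metaphyseal replicate 2, which also held these 3 genes, were too few to be shown.

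Macrophages, the usual source of C1q, were set against Lepr Cxcl12 stromal cells to see where the missing parts of the cascade were read. Of the 39 genes 14 were higher and 13 lower in macrophages by edgeR, beside 19.2% and 22.9% of all genes (42.2% in either direction), with a median log2 fold change of -0.33 next to -0.31 for all genes. *C1qa* had a mean of 1.07 CPM in Lepr Cxcl12 stromal cells. In macrophages it was at 3441 CPM in *Pdgfra-GFP* and at 0 in the 18 cells of metaphyseal replicate 1, so its fitted change (10.4), like those of *C1qb* and *C1qc*, rests on 1 library. Those 18 cells carried *Csf1r* (244 CPM), *Ctss* (1148) and *Mpeg1* (595) but neither *Ms4a7* nor any C1q gene. The 6 macrophages of metaphyseal replicate 2, too few for the fit, did hold *C1qa* (719 CPM from 42 UMIs), *C1qb* (856) and *C1qc* (479). Properdin (*Cfp*; 6.88), which stabilises the alternative enzyme, the C3a receptor *C3ar1* (in 1 of 2 libraries) and the complement receptor subunits *Itgam* (7.34) and *Itgb2* (7.20) were higher in macrophages, and 6 of 7 tested receptors were. *C1ra* (-5.23) and *Clu* (-5.92) were lower.

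The same lists were read in the other comparisons. In SCs against mpMSCs, 4 of 39 were higher and 5 lower, beside the 5.75% of all genes called. *Cd55*, a membrane protein that breaks up C3-splitting enzymes, was at a mean of 221 CPM in SCs and 21.2 CPM in mpMSCs (3.88, SE 0.448, adjusted p = 1.35e-07 by edgeR). Earlier results of these data had already used *Cd55* to gate SCs, so its p-value is no separate result. *Ece1* (1.77) and *Cd93* (1.61) were higher too, and *A2m* (-5.77), *Prcp* (-2.27), *Clu* (-1.79) and *C1ra* (-1.47) lower. In OBs 2 were higher, *Cd59a* (2.45), which blocks the membrane attack complex, and *Cpe* (1.59), and 12 lower, among them *A2m* (-4.25), *Cd55* (-2.46), *C1ra* (-2.43) and *Clu* (-2.33). These 14 of 39 are about the 36.9% of all genes called there in either direction. The 12 of 39 that were lower stand beside 19.0% of all genes lower. Near-empty levels of these list genes are not given, and the part of free RNA in their changes was not tested.

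In sinusoidal ECs against metaphyseal ECs 6 were higher, among them *Cd55* (3.55, adjusted p = 2.34e-08 by edgeR), the C5a receptors *C5ar1* (4.05) and *C5ar2* (2.68), *Susd4* (2.09) and *Cfd*, and *Prcp* (-1.24) and *Xpnpep1* (-0.63) were lower, 8 of 39 beside 16.3% of all genes. In interferon-high cells *A2m* was lower (-0.79, adjusted p = 0.000232 by edgeR) and the other 22 tested genes did not pass. Between kininogen-positive and kininogen-negative cells none of 28 passed in edgeR or DESeq2, and 4 had an unadjusted p under 0.05.

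To see which genes varied like the members, levels on the log2(CPM + 10) scale were correlated over 40 sums of 15 populations, which share libraries and free RNA. *Kng1* and *Kng2* followed each other (Pearson's r = 0.952, a description over sums). Both were chosen for their level in Lepr Cxcl12 stromal cells, and 32.59% of the 3′ words of *Kng1* also occur in *Kng2*. Their r is therefore no separate result. The same choice favours other genes that are high in those cells. *Kng2* was most like *Fgf7* (0.947), *Marc1* (0.947) and *H2-Q10* (0.941), and *Kng1* like *H2-Q10* (0.935), *Dpep1* (0.929) and *Fgf7* (0.922). *C4b* was also most like *Fgf7* (0.935), then *Chrdl1* (0.932) and *Ltbp2* (0.929). *C1s1* was most like *Fst* (0.943), which encodes the activin antagonist follistatin, then *1500009L16Rik* (0.916) and *Rarres2* (0.910).

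*Serping1* was most like *C1ra* (0.915), whose protein it inhibits, then *Agt* (0.906) and *1500009L16Rik* (0.899). *C2* was most like *Ltbp2* (0.902), *C1ra* (0.896) and *Il34* (0.877). *Cfb*, with few UMIs, reached only 0.670 with *Bmp4*, 0.665 with *Marc1* and 0.658 with *Fbln5*. *C3* was most like *Plbd1* (0.954), *Cybb* (0.939), which encodes a subunit of the phagocyte oxidase, and *Igsf6* (0.922), and its r with the other 7 members lay between 0.0396 and 0.25.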

How the data were processed

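Per the study's methods, the authors trimmed reads with fastp 0.20, aligned them with STARsolo in STAR 2.7.3a to mm10 with Gencode M23 and H2B-GFP, and deposited the resulting UMI counts as they were, without a cell filter or normalization. Reads were from 10x 3′ libraries, so UMIs are read near transcript ends. Here cells were kept with at least 1500 genes (metaphyseal) or 1000 genes (*Pdgfra-GFP*), with mitochondrial UMIs up to 15% and ribosomal UMIs up to 30%. Genes needed UMIs in over 10 cells. These limits follow the study's methods. EmptyDrops was not run. Scrublet (scanpy 1.11.5) called 25, 17 and 180 doublets, which were kept.

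A cell joined the population whose marker score was at least 0.25 and 1.5 times the second, with each marker capped at its 99.5 percentile. These thresholds were set after cell numbers were seen and before the members were tested. The 8 members and all lists were chosen with earlier results of these data known. *Aspn*, *Cotl1*, *Unc5b* and *Abcc9* were not highest in the population they mark.

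Raw counts were summed per library and population (at least 10 cells) and tested with edgeR 4.0.16 in R 4.3.3 (quasi-likelihood, TMM, filterByExpr, Benjamini-Hochberg threshold 0.05), with the library as a block because populations of a library share a suspension. Deviations of paired sums from their group means correlated at r = 0.262, 0.252 and 0.583 in the 3 libraries. DESeq2 1.42.0, size factors, filters, the gate, doublets, the smallest sum and each library left out were alternatives. The scripts were tested on simulated counts. Named genes are the members, up to 10 list genes per comparison with the largest change past the threshold and a mean of at least 20 CPM, 8 fixed list genes, and the 3 most alike genes per member. The result for 1 list gene is not shown. Genes named outside that rule (*Mbl1*, *Serpina3n*, *Klkb1*, *F12*, *Hba-a1*) were chosen after their values were seen. Positions are from Gencode M21 on GRCm38. Fold changes of genes at 0 in a group depend on the fit and are no bounds.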

Additional observations from a re-analysis of the deposited data

Results flagged for a closer look

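*C3* differed in direction between libraries when kininogen-positive were set against kininogen-negative Lepr Cxcl12 stromal cells. Its log2 ratio was -0.1939 in *Pdgfra-GFP* (308 and 100 UMIs) and 0.0257 and 0.1947 in metaphyseal replicates 1 and 2, where the negative cells gave only 19 and 14 UMIs. The difference between the libraries was not tested.

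All 8 members were read on barcodes with at most 100 UMIs, which the comparisons do not use. Summed over the 3 libraries these barcodes held 5356 UMIs of *Serping1*, 1407 of *Kng2*, 1227 of *Kng1*, 579 of *C4b*, 481 of *C1s1*, 331 of *C2*, 156 of *C3* and 28 of *Cfb*, each above the 3 UMIs that a count of 0 allows. No group had 4 or more libraries, so no library was tested for standing apart.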

How the results depend on the processing

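The Lepr Cxcl12 levels of all 8 members moved by less than 1 SD with a stricter gate, doublets removed, at least 500 genes per cell or cells thinned to 2000 UMIs. Leaving out 1 of 3 libraries cannot move a mean by 1 SD and shows nothing here.

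The counts here and below stand without the share of all genes called under the same setting. A change in them cannot be told from a change over all genes. Without the replicate block, 0 of 8 members (in place of 3) and 5 other list genes (in place of 9) passed in SCs. In that setting 9 list genes (in place of 14) passed in OBs, and 0 (in place of 1) in interferon-high cells. DESeq2's Wald test gave 9 list genes in OBs, 10 (in place of 17) in Lepr Cxcl12 stromal cells against mpMSCs and 0 in interferon-high cells. With no filter on low counts, 1 member passed in each split (*C4b* and *Serping1*, in place of 0), and 1 list gene in the kininogen split. With doublets removed, 1 member passed in sinusoidal ECs, *Cfb* at 4.50.

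Leaving out each library in turn gave 1 to 2 members and 1 to 7 list genes in SCs, 0 to 1 members and 5 to 14 list genes in sinusoidal ECs, 0 to 1 list genes in both splits, and 17 to 26 (in place of 27) in macrophages. The low counts in SCs and macrophages were those without *Pdgfra-GFP*, where only 11 and 18 such cells remain.

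Log2 fold changes that turned over belonged to members that had not passed. For *Cfb* in SCs they were 0.93 (DESeq2), 0.15 (no replicate block), 1.004 (stricter gate), 0.24 (doublets removed) and 0.0123 (at least 20 cells), and for *Cfb* in the kininogen split -0.0632 (DESeq2) and -0.13 (no replicate block). In sinusoidal ECs *C1s1* was 0.24 with doublets removed and *C2* 0.0442 (DESeq2) and 0.0483 (DESeq2 size factors). *C3* in the kininogen split was 0.11 under the stricter gate, and *Serping1* was 0.058 with at least 3 interferon genes. Leaving out each library in turn moved *C2* in SCs from -1.62 to 1.41 and *C3* in OBs from -1.31 to 1.23, with the positive values without *Pdgfra-GFP*. In sinusoidal ECs the ranges were -4.05 to 0.37 for *C1s1*, -0.53 to 0.72 for *C2* (both positive without metaphyseal replicate 2) and -0.28 to 0.84 for *Serping1* (negative without *Pdgfra-GFP*). In the kininogen split they were -0.13 to 0.11 for *C3* (positive without *Pdgfra-GFP*), -0.0566 to 0.045 for *C1s1* (negative without metaphyseal replicate 1) and -0.44 to 0.33 for *Cfb* (negative without *Pdgfra-GFP*). The cause of these changes was not tested.

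*C2* in OBs also lost its call in DESeq2 (adjusted p = 0.0841) and without the block (0.110 by edgeR). Depth limits *Cfb* everywhere and every member in SCs and ECs.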
